A study of Homo sapiens with 12 samples.

Results

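Transcripts of 10 cytokines were followed across 4 lines of MIA PaCa-2, a human pancreatic carcinoma cell line with mesenchymal features. They were IL6, IL11 and LIF of the interleukin-6 family, IL1A, IL1B and IL18 of the interleukin-1 family, IL15, IL32, and the colony-stimulating factors CSF1 and CSF2. The members were the rows of the deposited expression table that carry these gene symbols, 10 of 63086 genes. WT was the unmodified line. CRISPR Control had passed through CRISPR-Cas9 editing and carried a silent point mutation in TIMP1 only. TIMP1 KO 1 and TIMP1 KO 2 were clones in which exon 4 of TIMP1, the gene of a secreted inhibitor of metalloproteinases, had been targeted with a pair of guide RNAs to different parts of that exon. All lines grew in the same serum-containing RPMI 1640 medium and received no other treatment. Each line had 3 libraries named as biological replicates, and each edited line was a single clone or line, so an effect of TIMP1 and a difference between clones cannot be told apart within any 1 comparison. KO 1 and KO 2 are called deficient and WT and CRISPR Control competent.

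These genes encode secreted or released proteins through which tumour cells and immune cells act on one another. Members of the interleukin-6 family signal through the shared receptor chain gp130 to STAT3. Members of the interleukin-1 family signal through MyD88 and IRAK kinases, and IL-1β and IL-18 leave the cell after cleavage by inflammatory caspases. Colony-stimulating factors sustain macrophages and granulocytes, and IL-15 sustains natural killer cells and memory T cells.

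Libraries held 26908701 to 36093563 reads in genes. Values are normalised counts, which are read counts divided by 1 size factor per library. Relative to the WT mean, TIMP1 RNA stood at 32.7% (KO 2), 45.02% (KO 1) and 75.7% (CRISPR Control). Epithelial keratins and VIM were abundant in every line, with a summed level of the 6 epithelial markers of 56587 to 72786 in CRISPR Control and 174305 to 223516 in the other lines. T cell and B cell markers were absent or nearly so, with MS4A1 at 0 reads in all libraries and CD3E at no more than 2. The p-values below rest on the spread between the 3 libraries within a line, which may be technical. In the main fit all lines share 1 such spread per gene, so libraries outside a comparison also affect its p-value.

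Of the 10 members, 6 had a mean of at least 10 normalised counts and were tested, and the lines differed in most of them. IL32, LIF, IL18 and IL15 were each higher in at least 1 knockout line than in WT, IL18 fell in KO 1, and CSF1 fell in KO 2. Only IL32 among the 6 separated all deficient from all competent libraries, a pattern shown by 24.7% of all 15987 genes tested. CRISPR Control also differed from WT in 5 of the 6, where 53.4% of all genes tested did.

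**Figure D1:**
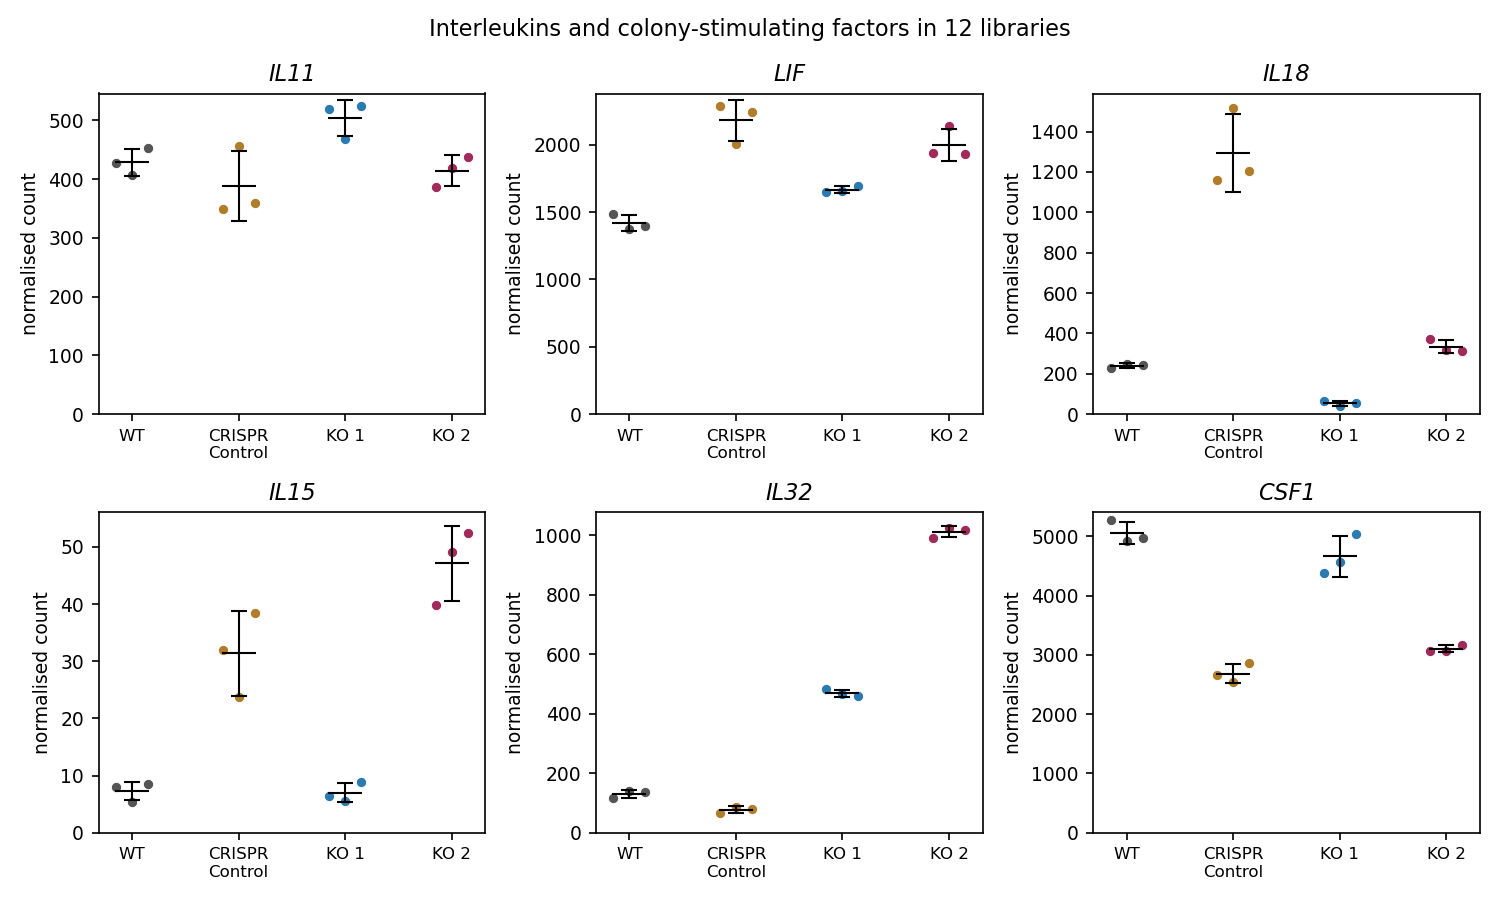
Normalised count (linear axis from 0) of the 6 tested members in the 12 libraries of WT, CRISPR Control, KO 1 and KO 2. Coloured points are libraries, and black bars give the mean and SD of 3. IL32 ranged from 66.5 to 140.0 in the competent lines and from 459 to 1025 in the deficient lines, whereas the highest line was CRISPR Control for IL18 and LIF and WT for CSF1.

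Per kilobase of annotated exon, the order of mean levels in WT was CSF1 at 965, LIF at 367, IL11 at 160.2, IL18 at 92.6, IL32 at 40.8 and IL15 at 0.929 normalised counts. In KO 2 the order was CSF1 at 592, LIF at 517, IL32 at 315, IL11 at 154.7, IL18 at 128.0 and IL15 at 5.98. CSF1 and LIF thus led in both lines on the per-kilobase scale. IL32 stood above IL11 in KO 2 and below it in WT.

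IL11, which signals through IL-11 receptor α and gp130, varied little between lines. WT libraries had 428, 406 and 452 normalised counts, and CRISPR Control libraries 349, 457 and 359. KO 1 libraries had 519.7, 468 and 525, and KO 2 libraries 386, 419 and 438. All KO 1 libraries lay above all libraries of the other lines, and the other 3 lines overlapped. The mean was 504 ± 31.3 for KO 1 and 429 ± 23.0 for WT, followed by KO 2 at 414 ± 26.3 and CRISPR Control at 388 ± 59.4 (SD, n = 3). KO 1 against CRISPR Control was the one comparison to pass, at 0.38 on the log2 scale (SE 0.11; limma, adjusted p 0.00533). KO 1 against WT gave 0.23 with a 95% interval from 0.00085 to 0.46 (limma adjusted p 0.111; 0.0435 when only these lines were fitted), and KO 2 against WT gave -0.05 with an interval from -0.28 to 0.18 (limma adjusted p 0.721). KO 2 against KO 1 gave -0.28 (limma adjusted p 0.0508) and passed without any 1 of the CRISPR Control libraries or without KO 1 replicate 2 (limma adjusted p 0.0209 to 0.04997). It also passed under quantile normalization (-0.34), with only these lines fitted, with a mean of at least 50, and by DESeq2 (-0.32), with adjusted p of 0.0210, 0.0267, 0.0437 and 0.0475. Deficient against competent lines gave 0.17 for IL11 (limma adjusted p 0.0673), and passed with equal library totals (0.22, limma adjusted p 0.0191), without CRISPR Control replicate 2 (0.23, limma adjusted p 0.00784) and without KO 2 replicate 1 (0.19, limma adjusted p 0.0496). CRISPR Control against WT passed when its replicate 2 was left out (-0.27, limma adjusted p 0.0360) where it otherwise did not (-0.15, limma adjusted p 0.259).

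LIF, leukaemia inhibitory factor, which signals through the LIF receptor and gp130, was lowest in WT. WT libraries held 1487, 1375 and 1394 normalised counts and KO 1 libraries 1652, 1654 and 1694. KO 2 libraries held 1935, 2136 and 1929, and those of CRISPR Control 2289, 2007 and 2244. WT, KO 1 and KO 2 followed one another without overlap, and CRISPR Control overlapped KO 2. On the log2 scale LIF exceeded its WT level by 0.23 in KO 1 (SE 0.07; limma, adjusted p 0.0201). The rise was 0.49 in KO 2 (limma adjusted p 1.72e-05) and 0.62 in CRISPR Control (limma adjusted p 1.35e-06). KO 1 lay below CRISPR Control by -0.38 (limma adjusted p 0.000188), and KO 2 did not pass against it, at -0.12 with an interval from -0.28 to 0.03 (it passed without CRISPR Control replicate 2, at -0.18, limma adjusted p 0.0385). LIF lies on chromosome 22 from 30240453 to 30246759 on the minus strand, and the antisense genes LIF-AS1 and LIF-AS2 overlap it at line means of 6.11 to 24.5 normalised counts. The rise in KO 1 did not pass without WT replicate 2, WT replicate 3, KO 1 replicate 2 or KO 1 replicate 3 (limma adjusted p 0.0513 to 0.0697). The difference of 0.26 between KO 2 and KO 1 (limma adjusted p 0.0094) did not pass without KO 2 replicate 2 (0.21, limma adjusted p 0.0633).

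IL6, the founding member of the family, was close to absent. It had 1 read in WT replicate 2, 1 in KO 2 replicate 1 and 1 in KO 2 replicate 2, and 0 in the other 9 libraries. A count of 0 allows up to 3 reads, which is 2.49 to 3.56 normalised counts in these libraries, for counting error only. No difference between lines was detectable at this depth. STEAP1B, which overlaps IL6 (chromosome 7 from 22725884 to 22732002) on the opposite strand, had line means of 165 to 763.

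IL18, an interleukin-1 family cytokine known for inducing interferon-γ in natural killer and T cells, went in opposite directions in the knockout lines. WT libraries had 229.8, 251 and 243 normalised counts, and CRISPR Control libraries 1159, 1515 and 1205. KO 1 libraries had 64.8, 41.6 and 55.7, and KO 2 libraries 370.3, 318 and 312. None of the 4 lines overlapped another, and the order was CRISPR Control, KO 2, WT and KO 1. Relative to WT, IL18 fell by 2.16 on the log2 scale in KO 1 (SE 0.15; limma, adjusted p 1.38e-09). It rose by 0.46 in KO 2 (limma adjusted p 0.0125) and by 2.41 in CRISPR Control (limma adjusted p 1.07e-10). KO 2 exceeded KO 1 by 2.62 (limma adjusted p 8.70e-11). Both knockout lines were below CRISPR Control, KO 1 by 23.7-fold and KO 2 by 3.85-fold. The deficient lines pooled were below the competent lines by -2.05 (limma adjusted p 3.00e-12), while KO 2 was above WT. The rise in KO 2 against WT did not pass under quantile normalization (0.28, limma adjusted p 0.103) or without KO 2 replicate 1 (0.38, limma adjusted p 0.0599).

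IL1A and IL1B encode IL-1α and IL-1β, which bind the same receptor, and lie 45258 bases apart on chromosome 2. IL1A had 0, 4 and 3 reads in the WT libraries, 6, 6 and 2 in those of CRISPR Control, 0, 1 and 1 in those of KO 1, and 0, 2 and 3 in those of KO 2. IL1B had no more than 4 reads in any library. Neither gene reached the mean of 10 normalised counts needed for the test. In a fit without that filter the difference nearest the threshold was IL1A in KO 1 against CRISPR Control, at -1.78 (limma adjusted p 0.0513).

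IL15 was expressed at a low level. WT libraries had 7.92, 5.45 and 8.57 normalised counts, and KO 1 libraries 6.48, 5.63 and 8.83. CRISPR Control libraries had 32.0, 23.7 and 38.5, and KO 2 libraries 39.8, 49.1 and 52.5. WT and KO 1 overlapped, and both lay below every library of CRISPR Control and KO 2. IL15 rose on the log2 scale by 2.54 in KO 2 relative to WT (SE 0.32; limma, adjusted p 1.76e-06). The rise in CRISPR Control was 1.96 (limma adjusted p 4.39e-05), while KO 1 against WT gave -0.06 with an interval from -0.72 to 0.61. KO 2 against CRISPR Control gave 0.59 with an interval from -0.08 to 1.25 (limma adjusted p 0.108). The WT and KO 1 values rest on 5 to 10 reads per library. Their means, 7.32 and 6.98, lay below the filter of 10. IL15 was thus tested only because of its levels in CRISPR Control and KO 2, the lines reported as higher.

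IL32 was the member with the most regular difference between deficient and competent lines. It encodes a cytokine first described in activated natural killer and T cells and also made by epithelial cells. WT libraries had 115, 140.0 and 137 normalised counts, and CRISPR Control libraries 66.5, 87.8 and 79.1. KO 1 libraries had 482, 465 and 459, and KO 2 libraries 991, 1025 and 1018. The 6 deficient libraries all lay above the 6 competent libraries, and no 2 lines overlapped. IL32 rose against WT 3.57-fold in KO 1 (1.84 on the log2 scale, SE 0.12; limma, adjusted p 7.26e-10) and 7.70-fold in KO 2 (2.95, limma adjusted p 3.98e-13). It fell in CRISPR Control by 0.75 on the log2 scale (limma adjusted p 3.93e-05), which places it outside the intersection of genes that differ from WT in both knockout lines but not in CRISPR Control. KO 2 exceeded KO 1 by 1.11 (limma adjusted p 6.81e-07), and deficient exceeded competent lines by 2.76 (SE 0.08, limma adjusted p 1.76e-15).

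IL32 lies on chromosome 16 from 3065297 to 3082192 on the plus strand (GRCh38). RNU1-125P and a noncoding gene on the opposite strand overlap it, and neither exceeded 1.19 normalised counts in any library. The bases before its first annotated base are shown because IL32 carried the main difference between deficient and competent lines, and those before IL11 because it varied least. Both come from RefSeq (GRCh38.p14), IL32 from chr16:3065153-3065296 on the plus strand and IL11 from chr19:55370464-55370713 on the minus strand. Capitals mark matches on either strand to the NF-kB consensus and to TGACGTCA (CRE) in IL32, and to TGANTCA (AP-1) in IL11.
IL32: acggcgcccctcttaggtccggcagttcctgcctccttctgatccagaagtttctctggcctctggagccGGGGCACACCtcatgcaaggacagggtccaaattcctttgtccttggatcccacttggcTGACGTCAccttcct
IL11: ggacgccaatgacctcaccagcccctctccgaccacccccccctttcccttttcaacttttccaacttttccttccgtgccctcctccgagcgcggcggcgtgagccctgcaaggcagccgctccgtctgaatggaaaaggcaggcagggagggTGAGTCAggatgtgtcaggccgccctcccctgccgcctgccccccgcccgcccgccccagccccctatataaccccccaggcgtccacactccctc

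The RefSeq window of 250 bases for this IL32 start continues 106 bases into the annotated gene, and in all it holds 4 NF-kB matches, of which 2 overlap, and 1 CRE match. Over 35116 promoter windows of that length, 54.4% held the NF-kB consensus, 1.65% the CRE letters and 6.57% the AP-1 letters. The ISRE consensus and TTCNNNGAA (GAS) had no match in either gene's window and occurred in 3.02% and 6.57% of windows. The exact letters TATAAA, which 10.7% of windows held, were in neither, and other forms of the TATA box were not searched. Promoter windows were found for 6 of the 10 members, namely IL6, IL1A, IL1B, IL11, IL32 and CSF2. These are matches of letters only, and binding was not measured.

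CSF1, the macrophage colony-stimulating factor, was the most abundant member. The largest of its own line differences was between WT and CRISPR Control. WT libraries had 5271, 4921 and 4967 normalised counts, and KO 1 libraries 4375, 4571 and 5039.6. KO 2 libraries had 3065, 3071 and 3169, and CRISPR Control libraries 2659, 2538 and 2858. WT and KO 1 overlapped, KO 2 and CRISPR Control lay below both, and KO 2 lay above CRISPR Control. Relative to WT, CSF1 fell by 0.70 on the log2 scale in KO 2 (SE 0.07; limma, adjusted p 1.19e-07) and by 0.91 in CRISPR Control (limma adjusted p 3.63e-09), and KO 1 gave -0.12 with an interval from -0.27 to 0.03. KO 2 exceeded CRISPR Control by 0.21 (limma adjusted p 0.0142). Deficient and competent lines did not differ past the threshold, at 0.05 with an interval from -0.06 to 0.15, but did under quantile normalization (0.12, limma adjusted p 0.0403).

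CSF2, which encodes GM-CSF, had 0 reads in all 6 competent libraries. It had 1, 1 and 0 reads in KO 1 and 7, 3 and 0 in KO 2. The reads came from 4 of the 6 deficient libraries. The gene was below the filter of the main test. Without the filter KO 2 passed against WT and against CRISPR Control (limma adjusted p 0.0372 and 0.0289), and KO 1 passed against neither (limma adjusted p 0.494 and 0.380). Deficient against competent lines also passed in that fit (limma adjusted p 0.0248). These values rest on 12 reads in all.

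Counted by comparison, 3 of the 6 tested members differed between KO 1 and WT, where 35.5% of all genes did. IL32 and LIF were higher and IL18 lower, beside 18.0% and 17.5% of all genes. Between KO 2 and WT 5 members differed (55.0% of all genes), with IL32, LIF, IL18 and IL15 higher and CSF1 lower (27.1% and 27.9%). Between CRISPR Control and WT 5 differed (53.4%), with LIF, IL18 and IL15 higher and IL32 and CSF1 lower (27.2% and 26.3%). Relative to CRISPR Control, all 6 differed in KO 1 (63.0%), with IL32, IL11 and CSF1 higher and LIF, IL18 and IL15 lower (31.7% and 31.3%). In KO 2 3 differed from CRISPR Control (67.7%), with IL32 and CSF1 higher and IL18 lower (33.3% and 34.4%). KO 2 and KO 1 differed in 5 members (38.2%), with IL32, LIF, IL18 and IL15 higher in KO 2 and CSF1 lower (18.1% and 20.1%). Between deficient and competent lines IL32 was higher and IL18 lower (32.9% and 33.0% of all genes), and the other 4 did not pass in the main test (IL11 and CSF1 passed under some other settings), where 65.9% of all genes did.

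Libraries of KO 1 and WT did not overlap in 4 of the 6 members, beside 52.6% of all genes. For KO 2 and WT the count was 5 (62.9%), for CRISPR Control and WT 5 (55.8%), and for KO 1 and CRISPR Control 6 (65.1%). For KO 2 and CRISPR Control it was 4 (67.7%), and for KO 2 and KO 1 it was 6 (53.1%).

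**Figure D2:**
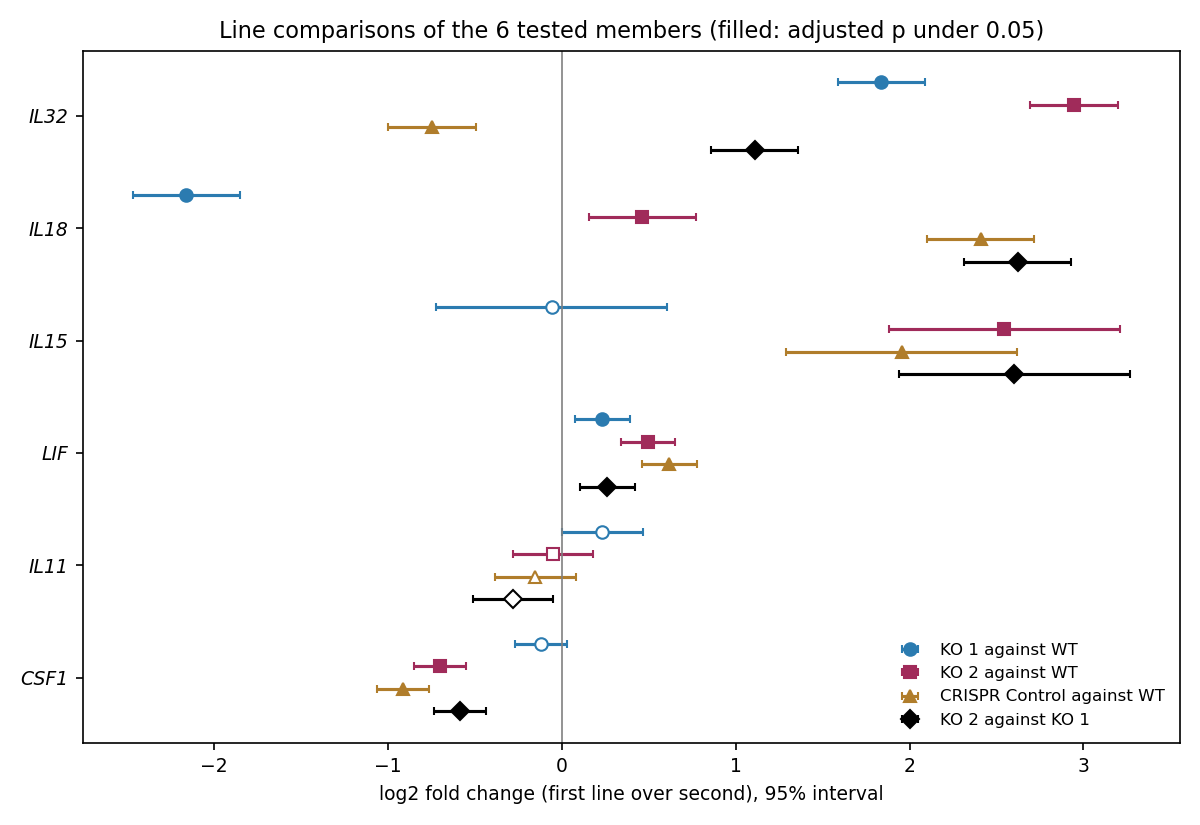
Log2 fold change (x axis, with 95% interval) of the 6 tested members for KO 1, KO 2 and CRISPR Control against WT and for KO 2 against KO 1. Filled symbols passed an adjusted p of 0.05. IL32 lies right of 0 in both knockout lines and left of 0 in CRISPR Control, whereas IL18 lies at -2.16 in KO 1 and at 0.46 in KO 2.

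IL32 and LIF were the members that changed in the same direction in both knockout lines against WT. No member was in the intersection by limma at the adjusted p, at an unadjusted p under 0.05, or by edgeR or DESeq2 on recovered reads, where 10.2% of all genes tested were in it by limma. IL32 and LIF both left it because CRISPR Control differed from WT, IL32 in the opposite direction to the knockout lines and LIF in the same direction. The pairs of comparisons with WT share the WT libraries, and those with CRISPR Control share its libraries.

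Of the leukocyte markers, CD14 and ITGAM were higher in both knockout lines, as IL32 was. The summed level of the 6 markers was 55.5 to 72.4 in WT, 50.5 to 55.7 in CRISPR Control, 110.4 to 134 in KO 1 and 236 to 285 in KO 2. These were the 2 of the 6 that were tested, and both were higher than WT in KO 1 (limma adjusted p 3.29e-05 and 0.00629) and in KO 2 (limma adjusted p 7.77e-09 and 6.66e-07). In CRISPR Control, where IL32 fell, neither passed against WT (CD14 0.02, ITGAM -0.45; limma adjusted p 0.921 and 0.151). The defining markers PTPRC, CD3E and MS4A1 had at most 9, 2 and 0 reads in a library. The part of these genes in the IL32 difference was not tested, and in bulk RNA a share of cells and the RNA per cell cannot be told apart. The 3 fibroblast markers had a summed level of 299.9 to 357 in KO 2, 48.6 to 66.5 in CRISPR Control, 31.5 to 53.0 in KO 1 and 30.5 to 43.0 in WT, and their part in the results for KO 2 was not tested. PDGFRA made up most of the KO 2 sum, at 272, 274 and 305 normalised counts, and DCN had 0 reads in every KO 2 library. The epithelial marker CDH1, which encodes E-cadherin, fell by 3.23 in KO 1 and by 3.81 in KO 2 on the log2 scale (limma adjusted p 4.19e-12 and 2.14e-13) and gave 0.26 in CRISPR Control (limma adjusted p 0.150). Like IL32 it separated the deficient from the competent libraries, and its part in the IL32 difference was not tested. CDH1 is 1 of 6 epithelial markers, all of them tested, and the others did not all follow it. Against WT, KO 1 had 1 of the 6 higher and 1 lower, and KO 2 had 2 higher and 4 lower. For CRISPR Control the count was 0 higher and 3 lower. Mean CDH2, another cadherin gene, was also below its WT level of 571 normalised counts, at 93.7 (KO 1) and 384 (KO 2), whereas CRISPR Control had 1110.

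Receptors of these cytokines were examined as well. The list also held OSMR, a receptor chain of oncostatin M, which is not a member. Whether the cells could respond to these cytokines was not tested. Of 18 receptor subunits, decoys and binding proteins, 10 were tested. Against WT, 4 were higher and 2 lower in KO 1, beside 18.0% and 17.5% of all genes, with a median log2 fold change of 0.18 against 0.0032 over all genes. In KO 2 6 were higher and 1 lower (27.1% and 27.9% of all genes; median 0.82 against -0.0084), and in CRISPR Control 4 were higher and 3 lower (27.2% and 26.3%, median 0.08 against 0.01). Of the genes in the list, 2 were in the intersection, OSMR and LIFR, both higher, beside 10.2% of all genes.

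OSMR encodes the oncostatin M receptor chain that pairs with gp130. WT libraries had 2852, 2971 and 3004 normalised counts and CRISPR Control libraries 3343, 2557 and 2816, while KO 1 libraries had 4824, 4837 and 4874 and KO 2 libraries 5285, 5139 and 4864. All deficient libraries lay above all competent libraries, where 24.7% of all genes separated these groups in either direction. OSMR rose by 0.72 in KO 1 and by 0.79 in KO 2 on the log2 scale (limma adjusted p 1.23e-06 and 1.50e-07), and CRISPR Control against WT gave -0.03 (limma adjusted p 0.806). LIFR, the LIF receptor chain, had 881, 1109 and 1063 in the WT libraries and 1352, 1156 and 997 in those of CRISPR Control, while KO 1 libraries had 1538, 1610.1 and 1676 and KO 2 libraries 2289.6, 2088 and 1931. It too was higher in every deficient than in every competent library. LIFR rose by 0.67 in KO 1 (limma adjusted p 7.80e-05) and by 1.05 in KO 2 (limma adjusted p 1.34e-07). CRISPR Control against WT gave 0.20 (limma adjusted p 0.134), and passed without CRISPR Control replicate 3 (limma adjusted p 0.0226).

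IL15RA, the chain that presents IL-15 to neighbouring cells, is described because it pairs with IL15, a choice made after its values were seen. WT libraries had 56.6, 59.1 and 51.4 normalised counts, and CRISPR Control libraries 12.96, 13.05 and 15.4. KO 1 libraries had 114, 101 and 110.4, and KO 2 libraries 230.3, 263 and 255. The 4 lines did not overlap. IL15RA rose by 0.95 in KO 1 (limma adjusted p 0.000197) and by 2.14 in KO 2 (limma adjusted p 3.55e-09), and fell by 1.94 in CRISPR Control (limma adjusted p 1.58e-08). IL15 itself rose in both KO 2 and CRISPR Control. CSF2RA, a receptor chain for GM-CSF, had 0 reads in every library. CSF1R, the receptor of CSF1, was below the filter, at 10.4 to 13.05 normalised counts in CRISPR Control, 3.31 to 8.77 in KO 2 and no more than 2.16 in WT and KO 1. IL18R1, a receptor chain of IL-18, was also below it, at 7.06 to 10.8 in KO 2, up to 4.40 in CRISPR Control and 0 in WT and KO 1. CSF1R, CSF2RA and IL18R1 were named after their values were seen.

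**Figure D3:**
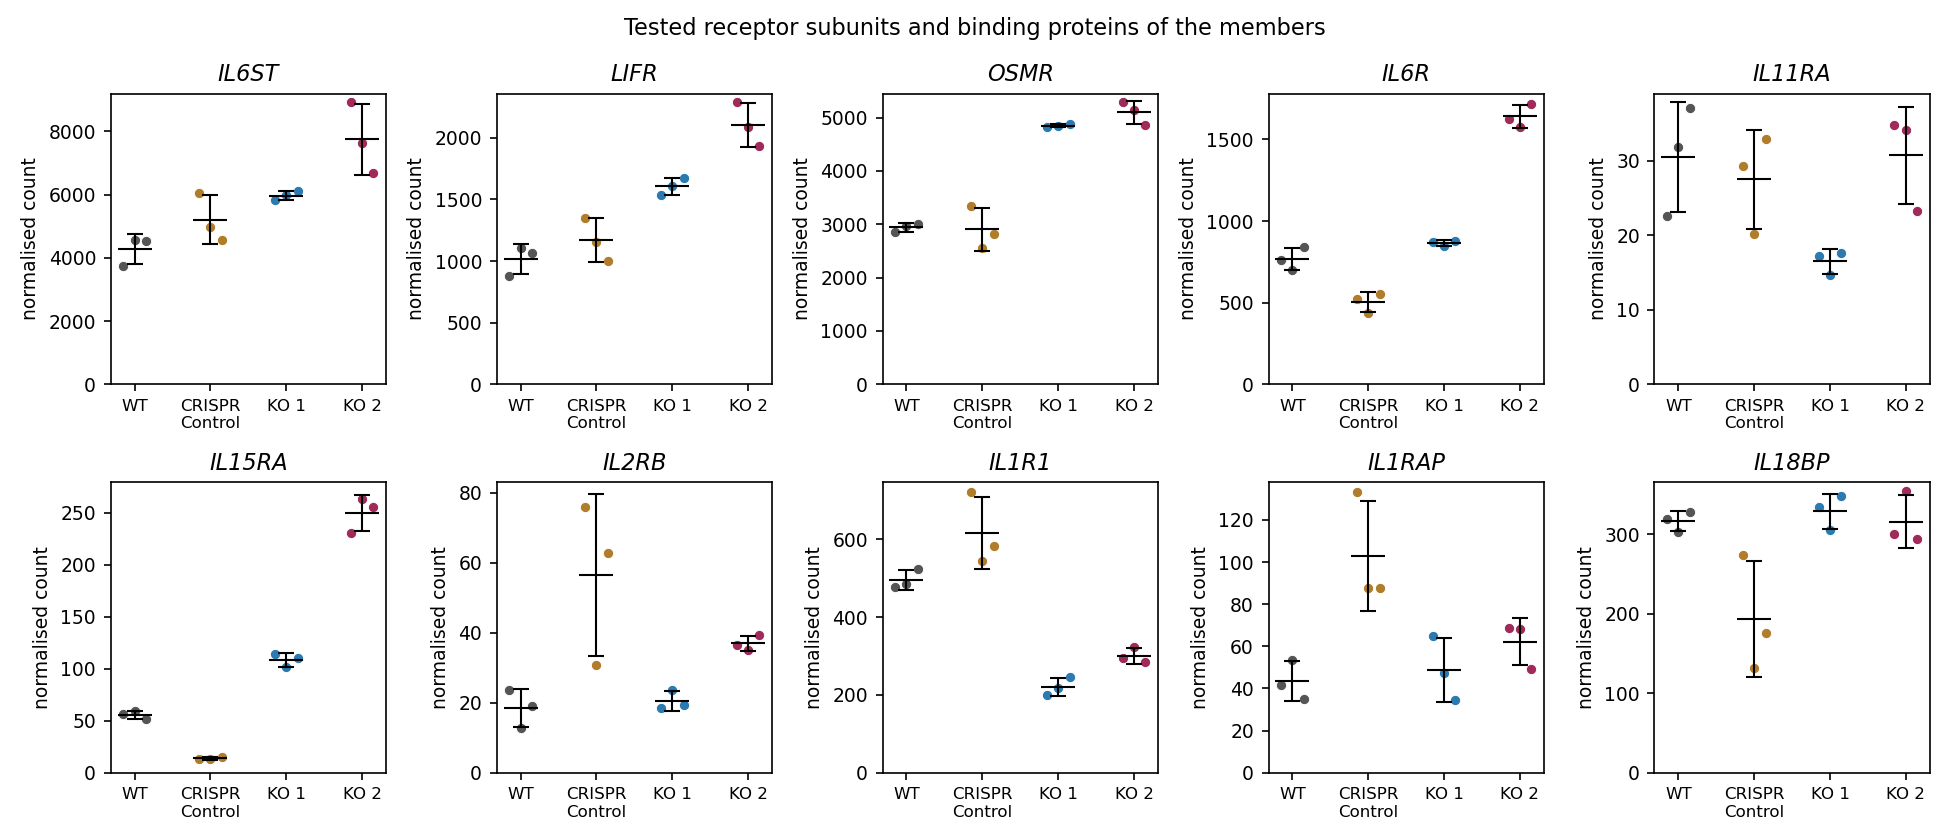
Normalised count (linear axis from 0) of the 10 tested receptor subunits and binding proteins in the 12 libraries. Points are libraries, and black bars give the mean and SD of 3. OSMR, LIFR and IL15RA were higher in each deficient library than in each competent library, where 24.7% of all genes separated these groups in either direction. IL15RA was lowest in CRISPR Control, at 12.96 to 15.4.

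Of 16 genes of cytokine processing and release (caspases, inflammasome genes, gasdermins, calpains, sheddases and NINJ1), 12 were tested. Against WT, 5 were higher and 1 lower in KO 1 (18.0% and 17.5% of all genes). In KO 2 9 were higher and 0 lower (27.1% and 27.9%), and in CRISPR Control 9 were higher and 1 lower (27.2% and 26.3%). None was in the intersection. CASP1, the caspase that cleaves pro-IL-1β and pro-IL-18, had 1.13, 8.18 and 3.81 normalised counts in the WT libraries and 12.96, 14.2 and 7.69 in those of CRISPR Control. KO 1 libraries had 18.4, 29.3 and 20.3, and KO 2 libraries 164.8, 164.8 and 188. CASP1 was low in all lines but KO 2, and rose against WT in KO 1 by 2.35 (limma adjusted p 0.000182), in KO 2 by 5.25 (limma adjusted p 3.52e-09) and in CRISPR Control by 1.43 (limma adjusted p 0.00659), the last not past the threshold when only the lines compared were fitted (limma adjusted p 0.0505). CASP4, a caspase that senses intracellular endotoxin, rose in KO 1 by 1.31, in KO 2 by 2.53 and in CRISPR Control by 1.06 on the log2 scale (limma adjusted p 2.79e-08, 1.20e-12 and 2.27e-07). NLRP1, an inflammasome sensor, rose in KO 2 by 3.60 (limma adjusted p 5.48e-05), from 0.953 to 7.92 normalised counts in WT to 34.3 to 50.9 in KO 2. All WT values lay below the filter mean of 10, which was taken over all 12 libraries and so includes the high KO 2 values. In KO 1 NLRP1 gave 1.36 (limma adjusted p 0.0879). This passed without WT replicate 1 (2.00, limma adjusted p 0.0175) or CRISPR Control replicate 2 (limma adjusted p 0.0409), and under quantile normalization (1.84, limma adjusted p 0.0343).

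Among 39 other interleukins and haematopoietic cytokines, 7 were tested, and the rest were below the filter. In KO 2 against WT 4 were higher and 2 lower (27.1% and 27.9% of all genes), in KO 1 2 were higher and 0 lower (18.0% and 17.5%), and in CRISPR Control 2 were higher and 1 lower (27.2% and 26.3%). None was in the intersection. EBI3, a subunit of IL-27 and IL-35, held 158 to 199 normalised counts in WT, 212 to 243 in CRISPR Control, 493 to 599 in KO 1 and 688 to 894 in KO 2. CTF1, cardiotrophin-1 of the interleukin-6 family, held 103 to 136 in WT, 61.7 to 76.01 in CRISPR Control, 239 to 285 in KO 1 and 269 to 358 in KO 2. For both genes every deficient library lay above every competent library, where 24.7% of all genes separated these groups in either direction. Both were named because they differed most between these groups, so the separation follows in part from that choice. EBI3 rose by 1.59 in KO 1 and by 2.14 in KO 2 against WT, and CTF1 by 1.16 and 1.38, with limma adjusted p of 6.93e-09, 4.42e-11, 8.34e-06 and 4.08e-07. CRISPR Control differed from WT in the same direction for EBI3 (0.35, limma adjusted p 0.0221; 0.0563 to 0.104 without WT replicate 1, WT replicate 3 or CRISPR Control replicate 3) and in the opposite direction for CTF1 (-0.77, limma adjusted p 0.000335). KITLG, stem cell factor, was high in CRISPR Control alone, at 486 to 594 against 10.6 to 62.6 in the other lines.

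Of 23 signal transducers and inhibitors downstream of these receptors, all were tested, and 14 were higher and 5 lower in deficient than in competent lines (32.9% and 33.0% of all genes). Against WT, 7 were higher and 2 lower in KO 1 (18.0% and 17.5%), 9 higher and 7 lower in KO 2 (27.1% and 27.9%), and 4 higher and 10 lower in CRISPR Control (27.2% and 26.3%). IRAK1, a kinase of the IL-1 and IL-18 receptor pathway, and SIGIRR, an inhibitory receptor of the same pathway, were in the intersection, which held 10.2% of all genes. IRAK1 fell by 0.35 in KO 1 and by 0.46 in KO 2 on the log2 scale (limma adjusted p 0.00195 and 7.35e-05). SIGIRR rose by 0.36 in KO 1 (limma adjusted p 0.0254) and by 0.47 in KO 2 (limma adjusted p 0.003). CRISPR Control against WT gave 0.03 for IRAK1 and 0.21 for SIGIRR (limma adjusted p 0.805 and 0.152), and the second passed without CRISPR Control replicate 1 (0.34, limma adjusted p 0.0209). The KO 1 call for SIGIRR did not pass without WT replicate 1, 2 or 3 or KO 1 replicate 1 or 3 (limma adjusted p 0.0513 to 0.114).

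Stability of cytokine messenger RNA depends on proteins that bind AU-rich stretches of the 3′ untranslated region. By the GENCODE annotation, the letters ATTTA occurred in that region in 8 of the 10 members, 9 times in IL11, 7 in LIF and 4 each in CSF1 and IL15, and not in IL18 or IL32. Over 19571 canonical transcripts with such a region 67.4% held these letters. The longer run TTATTTATT occurred 6 times in IL11, 3 in CSF2, 2 in LIF and 2 in IL1B, and in 8.43% of all transcripts. That region was 175 bases long in IL32, 336 in IL18 and 318 in CSF2, which held ATTTA 8 times. It was 1625 bases long in IL11, 2154 in CSF1 and 3198 in LIF. Of the tested members, only IL18 and IL32 differed between deficient and competent lines in the main test. No link between this and the lack of ATTTA was tested.

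All 12 genes listed as binding cytokine messenger RNA or setting its decay were tested. In KO 1 against WT 5 were higher and 3 lower (18.0% and 17.5% of all genes), and the 8 became 4 or 5 when WT replicate 1, 2 or 3 or KO 1 replicate 1 or 3 was left out. In KO 2 against WT 5 were higher and 4 lower (27.1% and 27.9%), with a median log2 fold change of 0.05, and 6 of the list were in the intersection, 3 higher and 3 lower, beside 10.2% of all genes. ZC3H12A, an endonuclease that cuts inflammatory transcripts, rose by 0.48 in KO 1 and by 0.62 in KO 2 (limma adjusted p 0.00402 and 0.000211). For this gene CRISPR Control against WT gave -0.28 (limma adjusted p 0.0512), and this passed under equal library totals, quantile normalization, a pseudocount of 0.5, a mean of at least 50, edgeR, and without KO 2 replicate 1 (adjusted p 0.0264 to 0.0497). ZFP36, a decay factor for AU-rich transcripts, rose by 0.26 in KO 1 and by 0.63 in KO 2 (limma adjusted p 0.0284 and 7.57e-06). HNRNPD, another binder of AU-rich stretches, fell by 0.29 in KO 1 and by 0.54 in KO 2 (limma adjusted p 0.0226 and 8.36e-05). The KO 1 calls for ZFP36 and HNRNPD did not pass without WT replicate 1, WT replicate 2 or KO 1 replicate 3, nor that for HNRNPD without KO 1 replicate 1, nor either without the filter on low values (limma adjusted p 0.0501 to 0.137).

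Genes near the members on the chromosome were compared with them, a step added after the members' values were known. CSF1 lies on chromosome 1 from 109910242 to 109930992, and 34 other tested genes lie within 1 Mb of it. In CRISPR Control against WT 23 of the 34 were lower and 2 higher (26.3% and 27.2% of all genes). The median log2 fold change was -0.59 beside -0.91 for CSF1. In KO 2 against WT 17 were lower and 1 higher (27.9% and 27.1%), with a median of -0.39 beside -0.70 for CSF1. In KO 1 against WT 4 were lower and 5 higher (17.5% and 18.0%), with a median of -0.02 beside -0.12. The window around CSF1 therefore differed in the same lines as CSF1 itself. The reason was not tested.

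IL15 lies on chromosome 4 from 141636583 to 141733987 with 5 tested neighbours. In CRISPR Control 4 of the 5 were higher than in WT and 0 lower (27.2% and 26.3% of all genes), with a median of 1.15 beside 1.96 for IL15. In KO 2 the count was 2 higher and 2 lower (27.1% and 27.9%), and IL15 lay above all 5. All 77 tested genes within 1 Mb of IL32 had a lower log2 fold change than IL32 in KO 1 and in KO 2 against WT, with medians of -0.05 and 0.04. In CRISPR Control against WT 30 of the 77 were lower and 2 higher (26.3% and 27.2% of all genes), with a median of -0.28 beside -0.75 for IL32, and 15 lay below IL32. IL18, on chromosome 11 from 112143253 to 112164096, fell further in KO 1 than any of its 17 tested neighbours, and exceeded 16 of the 17 in CRISPR Control.

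**Figure D4:**
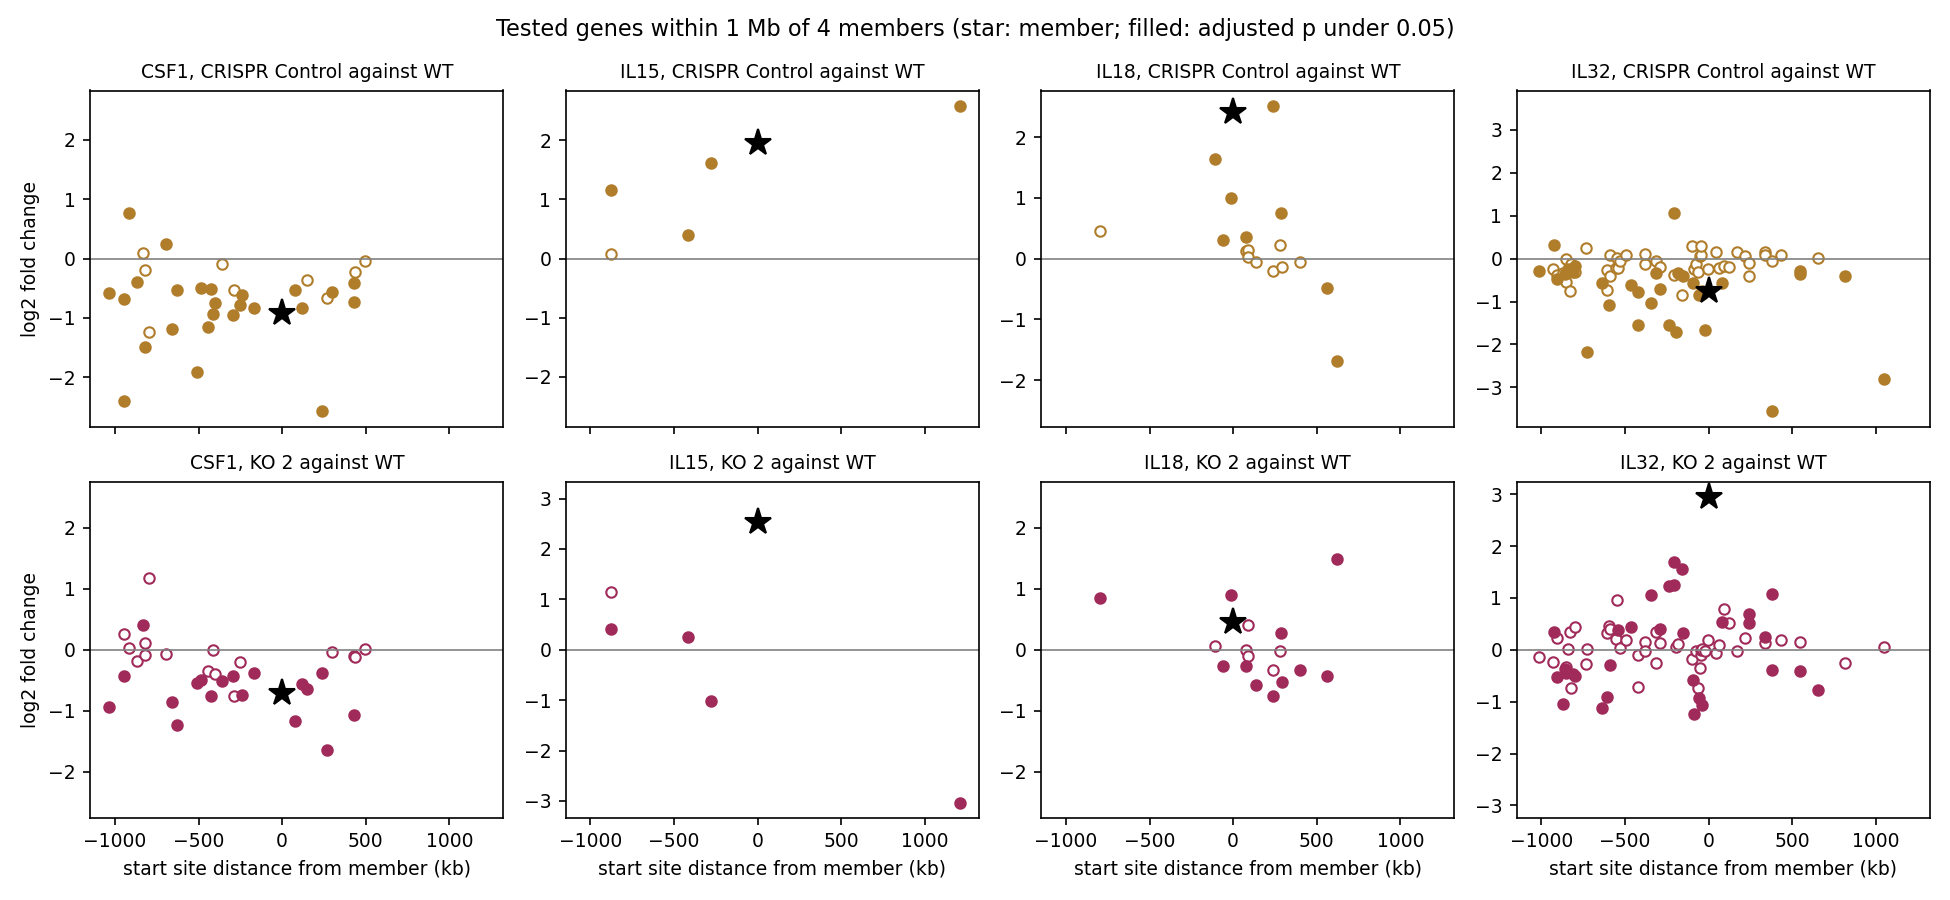
Log2 fold change (y axis) of tested genes within 1 Mb of CSF1, IL15, IL18 and IL32 against the distance of their start site from that of the member (x axis, in kb, positive in the direction of transcription), for CRISPR Control and KO 2 against WT. The star is the member, and filled circles passed an adjusted p of 0.05. Most genes around CSF1 lie below 0 in both comparisons (23 and 17 of 34 past the threshold), and IL32 lies above all its neighbours in KO 2.

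Transcripts with the pattern most like each abundant member were taken by Pearson r of log2(value + 1) over the 12 libraries, among genes with a mean of at least 100. The libraries come from 4 lines, so these r describe line differences and carry no test. IL32 was followed by LIPH (r = 0.996) and CD82 (r = 0.994), and IL18 by FAM198B (0.993) and MIR100HG (0.991). CSF1 was followed by RTL10 (0.993) and LPCAT3 (0.979), and LIF by ADM2 (0.970) and EGFLAM (0.964). For IL11 the nearest were ALG14 (0.858) and TM4SF1 (0.853). LIPH shows the size of such a match, with a mean normalised count of 2153 for KO 2, 1073 for KO 1, 437 for WT and 309 for CRISPR Control.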

How the data were processed

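Total RNA of 4 MIA PaCa-2 lines, 3 libraries each, was sequenced in read pairs. Per the submitters' notes and the study's methods, Cutadapt, STAR (GRCh38) and featureCounts were used in turn. The authors then scaled read counts with DESeq2, so the deposited signal is reads over 1 size factor for each library, here called the normalised count. Neither the annotation release nor the strand setting is given in the sources used here, so reads of genes that overlap on opposite strands cannot be told apart. A change common to most genes would be removed by this scaling. Authors' means of the 4 lines (4 columns) and 1 blank line were left out.

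Positive values were whole multiples of a step per library (100% within 0.01 reads), which gave the reads behind each value. Within lines, Pearson r over genes was 0.990 to 0.993. The chi-square per gene between them was 4.31 to 26.7, so none was counted as a repeat deposit.

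limma 3.58.1 (R 4.3.3; lmFit, contrasts.fit and eBayes with a trend) was run on log2(normalised count + 1) of the 15987 genes with a mean of at least 10 over the 12 libraries, with 4 line means and no covariate. Two-sided p-values were corrected over all genes tested (Benjamini-Hochberg), and 0.05 was the threshold. Fold changes refer to this log2 scale, on which low genes appear to change less. The intersection took genes past the threshold against WT in both knockout lines, in 1 direction, but not in CRISPR Control. The fit was checked on simulated data. Titles gave each library's line and replicate number. Alternatives were other pseudocounts, filters and scalings, single libraries left out, a replicate term, only the lines compared, and edgeR 4.0.16 and DESeq2 1.42.0 on recovered reads.

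The members and the related lists were chosen with earlier results of these data known. Named genes were all 10 members, TIMP1, and from each related list the 3 that differed most between deficient and competent lines among those in the intersection, or, with fewer than 2 there, among those past the threshold. IL15RA, a few other receptors and genes near the members were added after their values were seen. For likeness the 2 genes of highest r were taken. Coordinates and exon lengths come from GENCODE v44 (GRCh38), which may not be the authors' release.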

Additional observations from a re-analysis of the deposited data

Results flagged for a closer look

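In 5 of the 6 tested members the difference from WT was not the same in KO 2 and KO 1, where 38.2% of all genes passed. The test of this is the same as KO 2 against KO 1, because both are compared with the same WT libraries. The difference from WT in KO 2 minus that in KO 1 was a log2 fold change of 2.62 for IL18, 2.60 for IL15 and 1.11 for IL32 (limma adjusted p 8.70e-11, 3.00e-06 and 6.81e-07). It was 0.26 for LIF (limma adjusted p 0.0094) and -0.59 for CSF1 (limma adjusted p 2.89e-06). IL32 and LIF moved the same way in both lines and IL18 moved in opposite directions. Each knockout line is 1 clone, and a difference between clones cannot be told apart from a difference between edits.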

How the results depend on the processing

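Counts of members past the threshold were within 1.5 times the reported count under every alternative run, and the same held for counts of all genes. For members, settings that ended or made a call are given with each result. Values that changed sign were small or rested on few reads. Under quantile normalization IL15 in KO 1 against WT became 0.15, IL11 in KO 2 against CRISPR Control -0.057, IRAK1 in CRISPR Control against WT -0.020 and IRAK1 in KO 2 against KO 1 0.0082. With equal library totals IL11 in KO 2 against WT became 0.045. Over the 12 fits that each left out 1 library, IL15 in KO 1 against WT ranged from -0.23 to 0.065, and SIGIRR in KO 2 against KO 1 from -0.011 to 0.26. For CRISPR Control against WT the ranges were -0.13 to 0.061 for OSMR, -1.01 to 0.10 for NLRP1, -0.056 to 0.095 for IRAK1, -0.018 to 0.17 for HNRNPD and -0.055 to 0.10 for ZFP36. The cause was not tested. Equal library totals moved the share of calls that were higher from 49.3% to 59.9% in KO 2 against WT and from 47.4% to 65.5% in KO 2 against KO 1, and moved the median of all genes in KO 2 against CRISPR Control to 0.11.

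Replicate numbers gave no clear pairing of the libraries. Deviations correlated above 0.1 in 2 of 18 same-number pairs (range -0.129 to 0.160), and 4 of 12 libraries correlated best with their own number. Between CRISPR Control and KO 2 the same-number pairs had r of 0.160, -0.062 and 0.145. The crossed pairs of replicates 1 and 3 had -0.189 and -0.173. These values cannot settle whether libraries of these lines shared a batch. With a replicate block, members past the threshold stayed at 3 in KO 1, 5 in KO 2 and 5 in CRISPR Control against WT. The count tests planned on 12 libraries were not run. They were replaced, after seeing the data, by edgeR and DESeq2 on 11 libraries without KO 2 replicate 3. Its values were whole multiples of a step too, but that step (1.01 normalised counts for 1 read) lies close to 1, and it was left out for that reason. Depth limits IL6, IL1A, IL1B and CSF2, each with no more than 7 reads in a library.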
